A study of Danio rerio with 4 samples.

Results

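In 124 megabase-sized stretches of zebrafish chromosome interior, at most 18% of the 5hmC peaks of control embryos shared a base with a peak found after tet2/3 knockdown. They were chosen by that share itself, in fixed 1 Mb windows counted from position 0 on chromosomes 1 to 25 of GRCz11, with positions given 1-based. The rule uses the measured overlap, so nothing is read from the percentage below. A window was eligible if it lay wholly at least 5 Mb from either end of its chromosome and held the midpoints of 50 or more control peaks. The end was taken as the last peak end in either list. Of 1086 interior windows counted, 62 held under 50 control peaks and were not eligible. Of the 1024 eligible windows, 12.1% met the limit. They are called low-share windows here and are set against the 305 eligible windows in which 24 to 30% of control peaks were overlapped. The overlapped share, and the number of tet2/3 morpholino peaks that goes with it, are therefore given as descriptions.

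5-Hydroxymethylcytosine (5hmC) is made when TET enzymes oxidise 5-methylcytosine, the methylated base found mainly at CpG sites. It is an intermediate of active DNA demethylation and also a lasting mark, known for its presence in gene bodies and enhancers and for high levels in neural tissue. Tet2 and Tet3 are members of this enzyme family. A loss of their activity is known to lower 5hmC, although antibody enrichment shows where the base is concentrated and not how much of it a genome holds.

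One group of zebrafish carried a tet2/3 double morpholino and the other a control morpholino. Morpholinos are antisense oligonucleotides that block the translation or splicing of a transcript. Both groups were 48 hours post fertilisation, and each gave 1 pull-down with a 5hmC antibody (hMeDIP) and 1 input. The sample records name embryo as the tissue, while the extraction text speaks of head DNA. Strain and embryos per library are not stated in the records used here, and DNA peak lists do not show how far tet2 or tet3 was knocked down. With 1 pull-down per group, differences between groups have no replicate check and no p-value is given. Ranges in brackets after a share are 95% Wilson intervals; they reflect counting error alone and treat nearby peaks as independent, which they are not.

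The tet2/3 morpholino list held 80550 peaks on the 25 chromosomes and the control list 226591. Read totals are not in the peak lists. The lowest local background that fold and p-value of the peaks imply was 2.81 fragments in the tet2/3 morpholino list and 7.53 in the control list. The first value is in units of a pull-down scaled by 0.474, while the control list was solved without scaling. Read depth therefore cannot be compared from these values. A control peak without a tet2/3 morpholino peak was not detected in that list, which does not show that 5hmC was absent.

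Low-share windows held few tet2/3 morpholino peaks for their number of control peaks. They held 24.3 tet2/3 morpholino peaks and 137.5 control peaks per Mb on average, or 0.177 tet2/3 morpholino peaks per control peak. In the windows at 24 to 30% these values were 52.0 and 169.9 per Mb, or 0.306 per control peak. The low-share windows held 3.74% of all tet2/3 morpholino peaks on the 25 chromosomes and 7.53% of all control peaks. The overlapped share was 15.04% (14.5 to 15.6) of 17052 control peaks in low-share windows, 26.99% (26.6 to 27.4) of 51806 in windows at 24 to 30%, and 28.1% (27.9 to 28.3) over all eligible windows. Of the low-share windows, 11 lay below 10%, 46 from 10 to 15% and 67 at 15% or above.

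**Figure D1:**
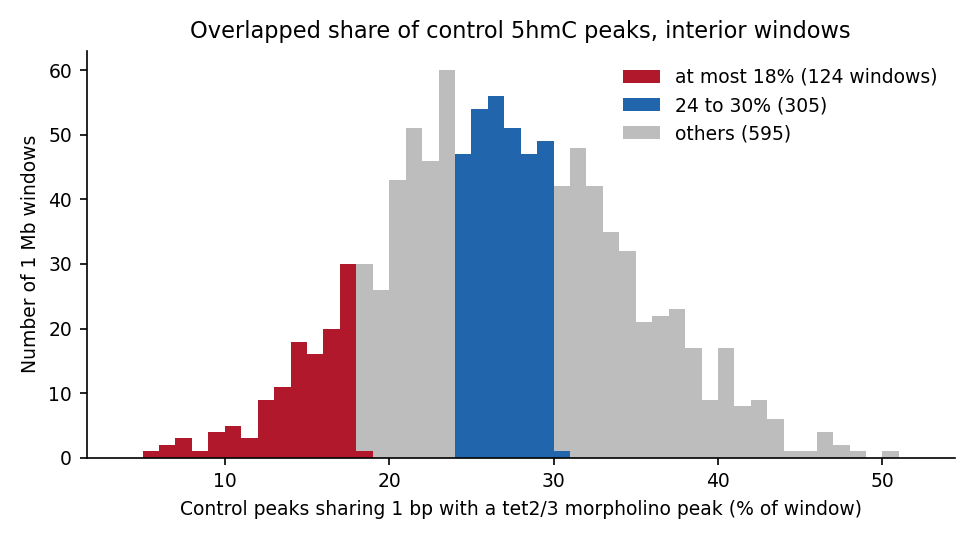
Number of 1 Mb interior windows (vertical axis) by the percentage of their control peaks that shared at least 1 bp with a tet2/3 morpholino peak (horizontal axis), with low-share windows in red, windows at 24 to 30% in blue and other eligible windows in grey. The shares form 1 broad distribution with a median of 26.5%, and the 124 low-share windows are its lower tail.

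The shares showed no gap at the limit. Just inside it lay chr7:43000001-44000000 with 45 of 250 control peaks overlapped (18%), chr8:24000001-25000000 with 16 of 89 and chr20:27000001-28000000 with 32 of 178 (17.98% each). Just outside lay chr21:11000001-12000000 and chr11:13000001-14000000, each with 20 of 111 (18.02%), and chr9:24000001-25000000 with 22 of 121 (18.2%). The interval of a single low-share window spanned 11.8 points at the median. In 93 of the 124 windows its upper limit was below 24%, and in 123 it was below the share over all eligible windows. As the windows were chosen by this same share, low upper limits follow in large part from the choice.

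The lowest share lay at chr17:47000001-48000000, which held 7 tet2/3 morpholino peaks and 92 control peaks. Of its control peaks 5 were overlapped, or 5.43% (2.34 to 12.1). At chr5:47000001-48000000, 7 tet2/3 morpholino peaks stood against 50 control peaks, of which 3 were overlapped (6.00%, 2.06 to 16.2). The other 4 tet2/3 morpholino peaks there met no control peak. At chr8:36000001-37000000 there were 4 tet2/3 morpholino and 60 control peaks, 4 of them overlapped (6.67%, 2.62 to 15.9). These windows were also sparse in control peaks, which makes their shares imprecise.

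At chr14:18000001-19000000, 10 tet2/3 morpholino peaks stood against 83 control peaks, 6 of them overlapped (7.23%, 3.36 to 14.9). At chr1:32000001-33000000 the numbers were 12 and 68, with 5 overlapped (7.35%, 3.18 to 16.1). The most densely marked of the 6 lowest windows, chr9:35000001-36000000, held 13 tet2/3 morpholino peaks and 147 control peaks, 11 of them overlapped (7.48%, 4.23 to 12.9). Its density was above the median of the low-share windows, at 135.5 control peaks, and 49 of its control peaks in a row had no overlap.

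Every chromosome held low-share windows. They made up 12.4% of a chromosome's eligible windows on average (SD 5.20 points over 25 chromosomes). The percentage was highest on chromosomes 8, with 10 of 44 windows (22.7%), and 14, with 9 of 41 (22.0%). Chromosomes 10 and 21 followed with 7 of 35 each (20%). It was lowest on chromosomes 7, with 3 of 64 (4.69%), 13, with 2 of 42 (4.76%), and 23, with 2 of 35 (5.71%). No chromosome carried a large part of them, and counts this small are imprecise. On chromosome 4, 2 of 24 eligible windows were low-share. Its last peak ended at position 78086902, so much of its interior held no eligible window.

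**Figure D2:**
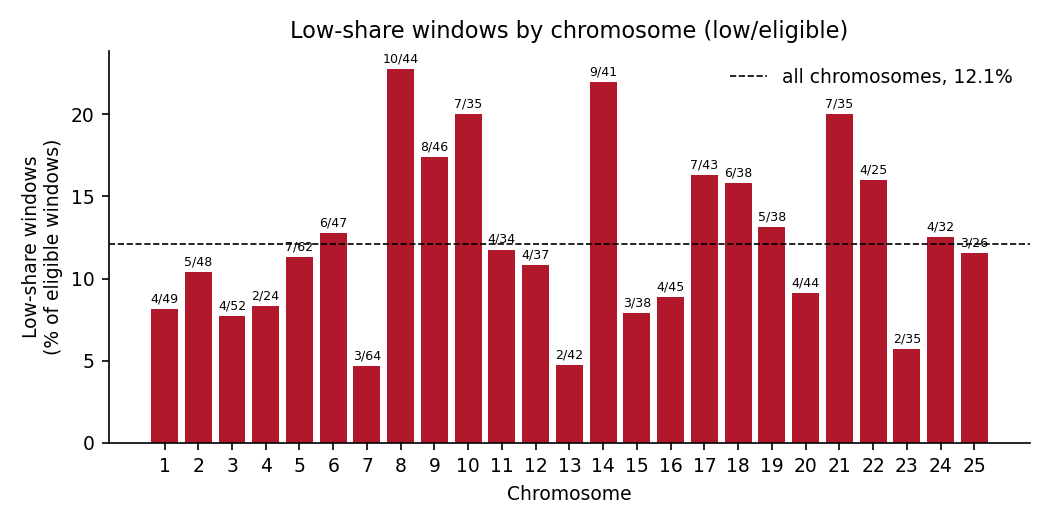
Low-share windows as a percentage of the eligible windows of each chromosome (vertical axis), with low-share over eligible windows written above each bar and the percentage over all chromosomes as a dashed line at 12.1%. Chromosomes 8, 14, 10 and 21 stand at 20% or more, and chromosomes 7, 13 and 23 below 6%.

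Low-share windows were not gathered at 1 distance from the chromosome ends. Among windows 5 to 10 Mb from the nearer end, 31 of 242 were low-share (12.8%, 9.17 to 17.6). The percentage was 17.3% (13.0 to 22.6) at 10 to 15 Mb, 10.97% (7.60 to 15.6) at 15 to 20 Mb and 8.44% (5.83 to 12.1) beyond 20 Mb. The intervals at 10 to 15 Mb and beyond 20 Mb did not overlap, and the others overlapped their neighbours.

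Some low-share windows adjoined each other. In all, 52 of the 124 touched another low-share window (41.9%, 33.6 to 50.7). Of the 239 eligible windows next to them, counted once for each low-share window they touch, 58 were low-share (24.3%, against the 12.1% among all eligible windows). They formed 72 single windows, 20 pairs, 1 run of 3, 1 of 4 and 1 of 5. This depended on where the window borders fell: with all borders moved by 0.5 Mb, 126 of 1005 eligible windows met the limit and 23.8% of them touched another. A window has a neighbour on either side, so unrelated placement would also give a touching share above the share of windows that are low-share. Neither touching share was set against unrelated placement. Of these 126, 80 shared bases with an original low-share window (63.5%), and 92 of the 124 original ones shared bases with a moved one (74.2%).

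The longest run, chr19:36000001-41000000, held 178 tet2/3 morpholino peaks and 976 control peaks. Of these control peaks 162 were overlapped, or 16.6% (14.4 to 19.1). Its 5 windows were alike, with shares between 15.4% and 17.7% and 162 to 214 control peaks each, all denser than the median low-share window. The run of 4, chr6:45000001-49000000, held 108 tet2/3 morpholino and 612 control peaks, 97 of them overlapped (15.8%, 13.2 to 18.95). Shares in its 4 windows ran from 14.8% to 17.2%.

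The run of 3, chr5:45000001-48000000, was sparser and more uneven. It held 48 tet2/3 morpholino and 262 control peaks, 35 of them overlapped (13.4%, 9.76 to 18.01), with window shares from 6.00% to 16.8%. Among the pairs, chr9:35000001-37000000 had the lowest share, with 35 tet2/3 morpholino and 324 control peaks, 29 of them overlapped (8.95%, 6.30 to 12.6).

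Away from the low-share windows, the share was close to that of the interior within 2 Mb. The median share was 15.3% in the low-share windows, 23.8% in the 227 eligible windows next to them and 26.7% in the 219 windows a further 1 Mb away. From there to 10 Mb it stayed between 25.7% and 27.3%, beside a median of 26.5% over all eligible windows. With low-share windows left out at every distance, the median was 26.2% in the windows next to them, 27.8% at 2 Mb and 26.9% to 28.9% from 3 to 10 Mb. The median number of control peaks per window was 135.5 in the low-share windows, 160 in the windows next to them and 164 over all eligible ones.

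Control peaks in low-share windows were sparser, narrower and of lower fold than in windows at 24 to 30%, with wide overlap between both sets. Fold is the authors' enrichment at the summit over local background. The median window held 135.5 control peaks (95% interval of the median 117 to 151) in the low-share set and 165 (155 to 173) in the other. Their ranges were 50 to 250 and 52 to 315. The median control peak width was 357 bp (347 to 362) in low-share windows and 379.5 bp (376 to 383) in windows at 24 to 30%. The median fold was 3.52 (3.51 to 3.57) in low-share windows and 3.72 (3.70 to 3.75) in windows at 24 to 30%.

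Single windows followed these medians in part. Of the 124 low-share windows, 84 held fewer control peaks than the median window at 24 to 30%, 96 had narrower ones and 107 had a lower median fold. Control peaks covered 5.83% of the bases of low-share windows and 7.92% of those at 24 to 30%. Peak width enters the overlap rule directly, since a wider interval meets another more easily. Control fold is tied to the rule as well. Over all eligible windows, 7.84% of control peaks with a fold under 3 were overlapped and 86.8% at 8 to 12. A rule on overlap therefore favours windows of lower control fold.

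**Figure D3:**
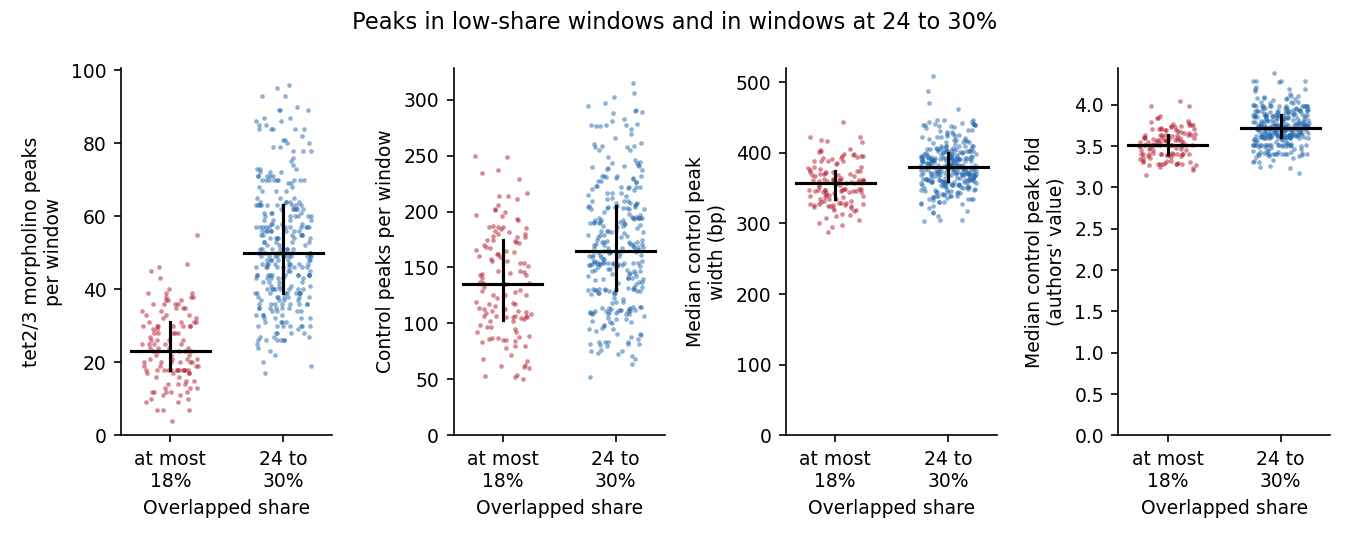
From left to right, tet2/3 morpholino peaks per window, control peaks per window, median control peak width (bp) and median control peak fold, with 1 point per 1 Mb window, low-share windows (red) left of windows at 24 to 30% (blue), black bars at medians and quartiles. The tet2/3 morpholino peak numbers separate most, with medians of 23 and 50, while control peak number, width and fold overlap widely.

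Within classes of control peak number, control peaks in low-share windows were also narrower and of lower fold. These windows were still chosen by low overlap, which favours both, so the values are descriptions. Among windows of 50 to under 100 control peaks, the median width was 326 bp in 29 low-share windows and 339 bp in 29 windows at 24 to 30%. At 100 to under 150 control peaks it was 348.5 and 363 bp (44 and 83 windows), at 150 to under 200 it was 370 and 382 bp (38 and 104 windows), and at 200 or more 398 and 403 bp (13 and 89 windows). The median fold was lower in low-share windows in each of these classes. The gap was largest at 200 or more control peaks, with 3.63 against 3.89. Densities within a class were not fully alike. By rising class, median control peak numbers were 83 and 83, 117.5 and 127, 174.5 and 170, and 214 and 231. Low-share windows were themselves more frequent among sparse windows, at 23.2% (16.7 to 31.3) of those with 50 to under 100 control peaks and 4.30% (2.53 to 7.22) of those with 200 or more. Fewer control peaks per window also make a share more variable.

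The background at control peaks tended to be lower in low-share windows, although the medians were close. Its median over windows was 8.42 fragments in low-share windows and 8.43 in windows at 24 to 30%. Means were 8.27 ± 0.336 and 8.51 ± 0.256 (SD over 124 and 305 windows), and lower quartiles 8.04 and 8.43. Many window values were tied near 8.43, which was also the upper quartile in low-share windows. A count of windows above or below that level would turn on rounding and is not given. At tet2/3 morpholino peaks the median was 3.00 in low-share windows and 3.10 in the others. Background could be solved only where a peak was found.

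If each control peak were overlapped at the rate of its fold class over all eligible windows (20 classes), 23.3% of control peaks in low-share windows would be overlapped, against 15.04% observed. Observed minus expected was -8.22 points. Only 4 of the 124 windows had an expected share under 18%, so the rule itself placed the observed share below the expected one in nearly all of them, and this difference is a description of the chosen windows. In windows at 24 to 30% the expected share was 27.4% and the observed 26.99%. With classes of both fold and width, 22.5% was expected in low-share windows, and with classes of fold and of the number of control peaks within 10 kb, 22.6%.

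Split by control fold, the overlapped shares were as follows; that they are lower in low-share windows follows from the choice of windows. Among control peaks with a fold under 3, 4.32% (3.77 to 4.93) were overlapped in low-share windows and 7.80% (7.35 to 8.28) in windows at 24 to 30%. At a fold of 4 to 5 the shares were 17.8% (16.5 to 19.2) and 28.6% (27.6 to 29.5), and at 6 to 8 they were 48.5% (45.6 to 51.3) and 63.9% (62.6 to 65.2). At 8 to 12 they were 76.0% (71.5 to 79.99) and 85.1% (83.5 to 86.5). At 12 or more, 19 of 21 control peaks were overlapped in low-share windows (90.5%, 71.1 to 97.3) and 190 of 199 in the others (95.5%, 91.6 to 97.6), and these intervals overlap. Strong control peaks were thus mostly retained in both sets, but were rarer in low-share windows, where 2.25% of control peaks had a fold of 8 to 12 against 4.40% in windows at 24 to 30%. The rule favours this, since windows with few strong control peaks have less overlap.

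Split by width, which is tied to the choice in the same way, the sets differed by more points among wide peaks. Of control peaks of 1000 bp or more, 56.6% (51.6 to 61.4) of 387 were overlapped in low-share windows and 78.6% (76.9 to 80.2) of 2387 in windows at 24 to 30%. Of those under 300 bp, 4.34% (3.84 to 4.90) and 7.099% (6.70 to 7.52) were overlapped. Such wide peaks made up 2.27% of control peaks in low-share windows and 4.61% in the others. At a fold of 6 to 8, 41.9% (39.1 to 44.7) of control peaks in low-share windows had their summit inside a tet2/3 morpholino peak. In windows at 24 to 30% this was 56.1% (54.7 to 57.4). Control width does not enter this measure, but a summit inside such a peak is itself an overlap. The lower value is therefore also tied to the choice of windows.

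**Figure D4:**
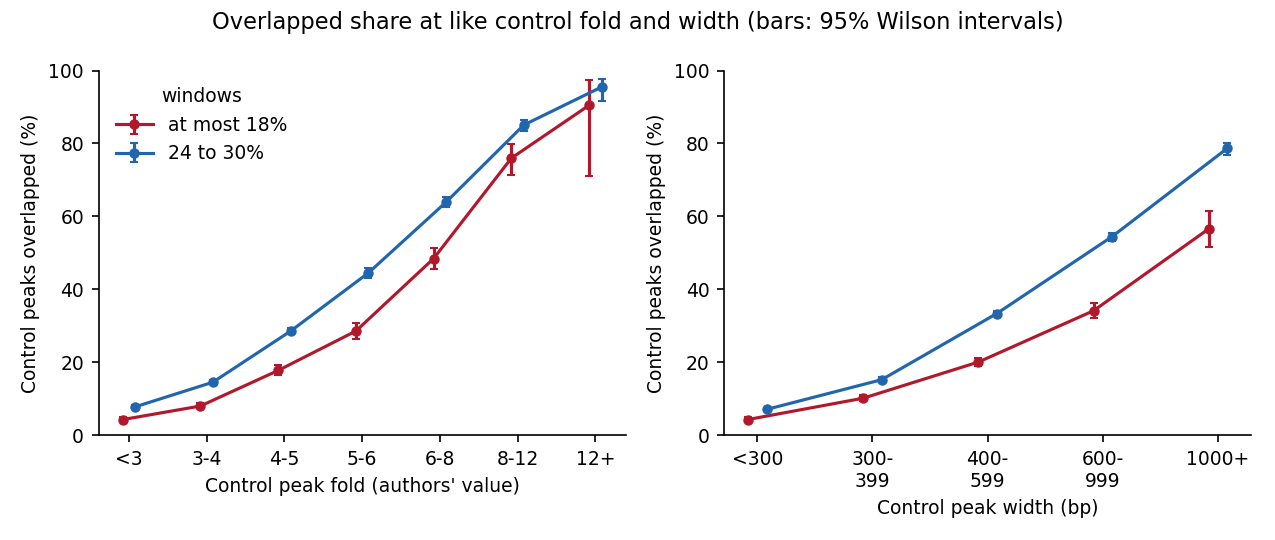
Percentage of control peaks that shared at least 1 bp with a tet2/3 morpholino peak (vertical axis) by control peak fold (left) and control peak width in bp (right), in low-share windows (red) and windows at 24 to 30% (blue), with 95% Wilson intervals. The red points lie below the blue ones in each class, as the choice of windows by this share entails, with overlapping intervals at a fold of 12 or more.

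Control peaks that were retained in low-share windows, meaning overlapped by a tet2/3 morpholino peak, were the stronger and wider ones. Their median fold was 5.07 and their median width 527 bp, while in windows at 24 to 30% retained control peaks had 5.39 and 575 bp. Control peaks without overlap were much alike in both sets, with a median fold of 3.399 in low-share windows and 3.420 in the others and widths of 341 and 342 bp. A tet2/3 morpholino peak lay within 500 bp of 1.69% (1.49 to 1.91) of the control peaks without overlap in low-share windows. In windows at 24 to 30% this was 4.21% (4.02 to 4.42). Such nearness depends on the number of tet2/3 morpholino peaks, with 24.3 per Mb in low-share windows and 52.0 in windows at 24 to 30%. The rule favours windows with few of them, and nearness was not compared at like peak numbers.

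The tet2/3 morpholino peaks in low-share windows stood apart from each other. Of all 3015 of them, including 382 that met no control peak, 49.5% (47.7 to 51.3) had no other tet2/3 morpholino peak within 10 kb, against 23.5% (22.9 to 24.2) of 15854 in windows at 24 to 30%. The median distance to the nearest other peak was 9794 bp and 3961 bp. They were also narrower, with a median width of 236 bp against 272 bp, and of about the same fold, 3.92 against 3.99. These distances depend on the number of peaks in a window, and the rule favours windows with few of them.

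Within classes of tet2/3 morpholino peak number, from 20 to under 60, the isolated share was also higher in low-share windows. In windows of 20 to under 30 tet2/3 morpholino peaks, 52.9% (49.7 to 56.1) were isolated in 39 low-share windows and 41.1% (36.8 to 45.5) in 19 windows at 24 to 30%. At 30 to under 40 peaks the shares were 42.0% (39.2 to 44.9) in 34 windows and 34.6% (32.5 to 36.7) in 57, and at 40 to under 60 peaks 33.7% (28.4 to 39.5) in 6 windows and 25.6% (24.5 to 26.6) in 134. These windows differ in control density, with medians of 135 and 83 control peaks in the class of 20 to under 30. Low-share windows also held fewer tet2/3 morpholino peaks per window within each class, which by itself goes with more isolation. At 40 to under 60 there were 276 in the 6 low-share windows and 6626 in the 134 others. At 10 to under 20 peaks the order was the opposite, with 63.1% isolated in 39 low-share windows and 66.7% at 24 to 30%. The second value is from only 2 windows, which is too few to compare.

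**Figure D5:**
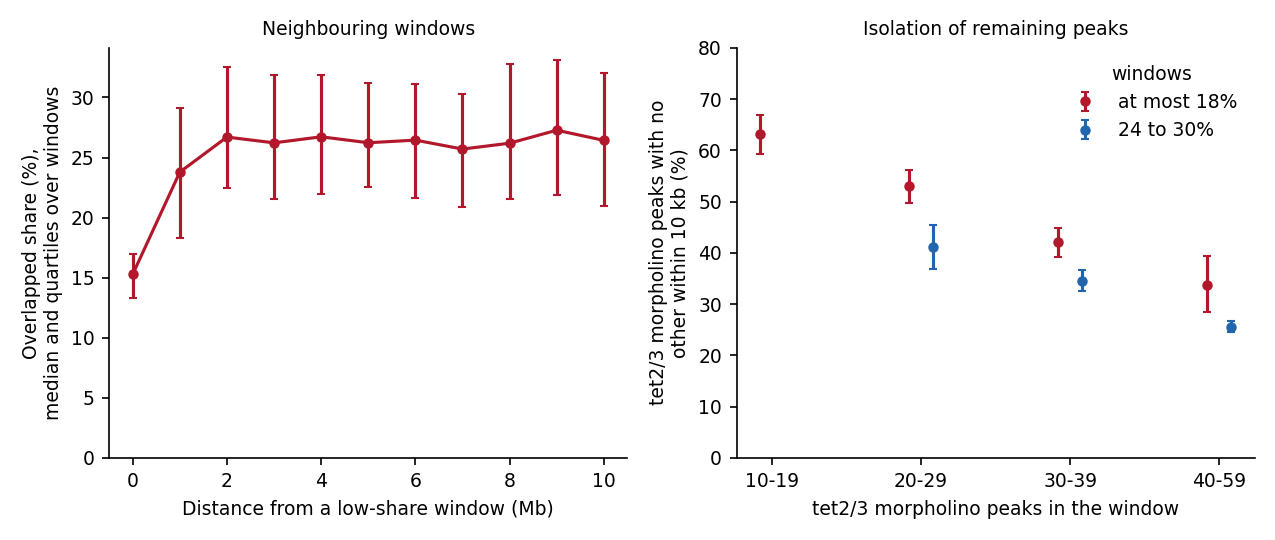
Left, the overlapped share (median and quartiles over eligible windows) against the distance in Mb from a low-share window, with the low-share windows themselves at 0. Right, the percentage of tet2/3 morpholino peaks with no other within 10 kb (95% Wilson intervals) by the number of tet2/3 morpholino peaks in the window, in low-share windows (red) and windows at 24 to 30% (blue; classes of under 5 windows left out). The median share is 26.7% at 2 Mb, and the isolated share is higher in red in each class with both.

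Control peaks were less isolated than tet2/3 morpholino peaks. They were 5.66 times as many in low-share windows and 3.27 times as many in windows at 24 to 30%. At a fixed distance of 10 kb, a denser list has fewer isolated peaks. In low-share windows 6.02% (5.68 to 6.39) of control peaks had no other control peak within 10 kb, against 4.05% (3.89 to 4.23) in windows at 24 to 30%. Control peaks with company were overlapped more often in both sets. With no other control peak within 10 kb, 10.5% (8.78 to 12.54) were overlapped in low-share windows and 17.5% (16.0 to 19.2) in the others, and with 4 or more, 17.2% (16.3 to 18.02) and 29.9% (29.4 to 30.4). Within low-share windows, 48.1% (46.2 to 50.1) of retained control peaks had another retained control peak within 10 kb, and 38.7% (37.9 to 39.5) of the control peaks without overlap did. In windows at 24 to 30% these were 74.5% (73.8 to 75.2) and 63.2% (62.7 to 63.7). That overlapped and retained control peaks are fewer in low-share windows follows from the choice of windows.

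Long stretches without any tet2/3 morpholino peak ran through low-share windows. The longest such stretch in a window had a median of 180428 bp in low-share windows and 135876 bp in windows at 24 to 30%, and 98 of the 124 low-share windows exceeded that median of the windows at 24 to 30%. Among low-share windows the longest, chr5:47154253-47827541, spanned 673289 bp but crossed only 12 control peaks. The second among them, chr14:18371556-18886817, spanned 515262 bp and crossed 47 control peaks. The third among them, chr8:36000001-36479676, spanned 479676 bp up to the window border and crossed 19. Such lengths also occurred elsewhere, up to 484848 bp in windows at 24 to 30% and 608364 bp in the other eligible windows. The longest row of control peaks without overlap had a median of 22 peaks in low-share windows and 15 in windows at 24 to 30%. Longer stretches and rows are tied to the choice of windows, since the rule favours few tet2/3 morpholino peaks and little overlap. They were not compared at like peak numbers.

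Among the control peaks of low-share windows without overlap, the 5 of highest fold had −log10 q-values of 67.3 to 82.0 in the control list. These values do not show how readily such a site would be called in the tet2/3 morpholino list. The first, chr7:43916680-43917233, had a fold of 13.0 from 110 fragments over a background of 7.53, and the nearest tet2/3 morpholino peak lay 1275 bp away. The second, chr3:27332506-27333045, had a fold of 12.3, with the nearest at 4696 bp. The third, chr18:42042736-42043201, had a fold of 11.7, with none within 22527 bp. The others lay at chr6:45398219-45398891, with a fold of 11.5, inside the run of 4 windows, and at chr7:43714266-43714711, with a fold of 11.4. In low-share windows overlap was lacking for 92 of 383 control peaks at folds of 8 to 12, while 19 of 21 at 12 or more were overlapped.

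The 5 tet2/3 morpholino peaks of highest fold in low-share windows each met 1 control peak. The first, chr10:18045790-18046555, had a fold of 12.1 and lay within a control peak with a fold of 15.004. The second, chr14:27059714-27060414, had a fold of 11.9, lay 15009 bp from the next tet2/3 morpholino peak and within a control peak with a fold of 14.8. The third, chr4:13997515-13998244, had a fold of 11.04 and met a control peak with a fold of 7.21. The fourth, chr23:19900610-19901563, had a fold of 10.9 over a control peak with a fold of 3.42, which it spanned. The fifth, chr12:29624924-29626093, had a fold of 10.2 and lay within a control peak with a fold of 11.2. Fold depends on background and scaling, which differ between the lists, so a tet2/3 morpholino fold is not compared with a control fold.

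Peaks found only after knockdown were a larger part of the few tet2/3 morpholino peaks in low-share windows. Of 3015 tet2/3 morpholino peaks, 12.7% (11.5 to 13.9) met no control peak, against 8.38% (7.96 to 8.82) of 15854 in windows at 24 to 30%. Their median width was 166.5 bp and 174 bp, and their median fold 3.74 in both. In number they were fewer, with 382 in 124 low-share windows and 1329 in 305 windows. Because the rule limits overlap, it favours a larger part without a control peak in low-share windows. Within classes of tet2/3 morpholino peak number the order varied. The shares were 14.01% in low-share windows and 13.4% in windows at 24 to 30% at 20 to under 30 peaks, 10.12% and 12.6% at 30 to under 40, and 8.33% and 8.60% at 40 to under 60. At 10 to under 20 peaks they were 16.4% and 13.9%, the second from only 2 windows.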

How the data were processed

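5hmC pull-downs of tet2/3 double morpholino and control morpholino zebrafish at 48 hours post fertilisation were analysed from 1 peak list each. Inputs have no file of their own here. The submitters' processing notes name Bowtie2 2.2.6, MACS2 2.2.7.1, deepTools and the builds GRCz11 and danRer11. Settings and any pooling of embryos were not given in the sources used here. The deposited values are a fold enrichment (ratio) at the summit, a −log10 p-value and −log10 q-value by the authors' peak caller, and a score, which is the −log10 q-value times 10. Coordinates are 1-based in GRCz11. Library read totals were not analysed here.

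Overlap meant 1 shared bp. A peak belongs to the window of its midpoint. Pileup and background were solved from fold, taken as (pileup + 1) / (background + 1), and the Poisson p-value, with the tet2/3 morpholino pull-down scaled by 0.474. All peaks of both lists on chromosomes 1 to 25 were solved within a relative misfit of 0.0001. Overlap and solver were tested on simulated data. Medians have binomial order-statistic intervals. Python 3.11.15, numpy 2.4.6, pandas 2.3.3, scipy 1.17.1 and matplotlib 3.10.9 were used.

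Windows, measures and named items were chosen with earlier results of these data known. Named were the 6 lowest windows, the longest runs (up to 4), 3 windows on either side of the limit, the 5 control peaks of highest fold without overlap, the 5 tet2/3 morpholino peaks of highest fold and the 3 longest empty stretches. Alternatives changed the overlap rule, the threshold, window placement and size, the limits and the comparison windows. No window is assigned to a gene and no sequence is shown, since the only annotation table in use belongs to a different build.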

Additional observations from a re-analysis of the deposited data

How the results depend on the processing

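Against their comparison windows, the low-share windows kept the same direction in control peak density, width and fold and in isolation. This held under each of the 11 alternatives run. Each alternative still chose windows by low overlap, which favours lower control fold, narrower control peaks and fewer tet2/3 morpholino peaks. Control density and isolation are tied to that choice as well. The sign of the gap to the share expected from fold is set by the choice of windows, so only its size is given. Where overlap rule or threshold changed, both sets of windows were taken by rank, and the number at 18% or less was counted apart. The comparison windows then had an overlapped share of 14.9% with 50% overlap and 30.0% within 500 bp. It was 22.9% at the summit and 15.2% with a −log10 q of 5 or more. With 50% of both intervals overlapping, 759 windows met the limit, the gap was -6.06 points and the isolation difference 23.1 points, against 124 windows, -8.22 and 25.95. Of the 124 lowest windows, 91 were shared. With a tet2/3 morpholino peak within 500 bp the gap was -10.3 points and the fold difference -0.210, against -0.201. With the control summit inside a tet2/3 morpholino peak, 247 windows met the limit, the gap was -6.91 and the fold difference -0.212. With both lists limited to a −log10 q of 5 or more, 703 windows met it, the gap was -5.90, the background difference -0.177 fragments (-0.00422 before) and the isolation difference 30.3, with 76 windows shared. Stricter overlap and thresholds lower the shares by construction. In 0.5 Mb windows, 384 met the limit, with a gap of -8.98, a fold difference of -0.219 and an isolation difference of 28.3. At a limit of 15%, 57 windows were left, with -9.90, -0.223 and 34.9. With 100 or more control peaks the isolation difference was 24.04. With all other windows as comparison it was 29.4 and the fold difference -0.234. With only the windows whose upper limit lay below 24%, an alternative chosen after seeing the data, the gap was -8.90. The share of low-share windows that touch another was 41.9%, where 124 of 1024 eligible windows were low-share. It was 23.8% with borders moved by 0.5 Mb (126 of 1005). With 100 or more control peaks it was 32.6% (95 of 899), and at a limit of 15% it was 24.6% (57 of 1024). A touching share depends on how many windows are low-share, so these values are not directly comparable. In the main setting, 20.98% of the windows at 24 to 30% touched a low-share window. The cause of the lower values was not tested. The other 58 values stayed within the interval of the main value or, for the number of windows, within 1.5 times. Among them, the density difference of -29.5 control peaks per window was -15 with 100 or more control peaks, -18 with the upper limit below 24% and -19.5 with 50% overlap. Of the same 58 values, the background difference was -1.53e-05 fragments with 50% overlap and -1.65e-05 in 0.5 Mb windows. Neither list held repeated intervals, so that alternative gave no value. No paired analysis was possible because there is only 1 pull-down for tet2/3 morpholino and 1 for control. At a control fold under 3, 4.32% were overlapped in low-share windows and 7.80% in windows at 24 to 30%; the part of depth in this was not tested.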

Other observations

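The shares of sections inside single windows differed, and counting error in sections this small was not set apart from position. In 116 of the 124, both 0.5 Mb sections held 25 or more control peaks. Both sections were at 18% or less in 53 of them, 1 section was at 24% or more in 8, and they differed by 5.69 points at the median, against 7.36 points in 291 windows at 24 to 30%. In bins of 100 kb with 10 or more control peaks, none was overlapped in 11.1% (9.13 to 13.4) of 849 bins of low-share windows and in 2.25% (1.72 to 2.95) of 2262 bins of windows at 24 to 30%. In 18.4% (15.9 to 21.1) of the bins of low-share windows, and in 55.4% (53.4 to 57.5) of the others, 24% or more of the control peaks were overlapped. Both bin differences follow from the choice of windows by overlapped share. The longest row of control peaks without overlap in a low-share window had 57 peaks, at chr14:28000001-29000000, where 29 of 170 control peaks were overlapped (17.1%). It was named after its value was seen.

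Over all 1024 eligible windows, the overlapped share rose with the median control fold (Spearman's rho 0.616), the median control width (0.587) and the number of control peaks (0.447). These are descriptions over windows that share both libraries. The share minus that expected from fold had a rho of 0.175 between windows 1 Mb apart (984 pairs), 0.0298 at 2 Mb (959 pairs) and 0.0116 at 5 Mb (886 pairs).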
